A study of Homo sapiens with 12 samples.

Results

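The human mitochondrial genome is transcribed inside the mitochondrion, and its transcripts were followed here in RPMI2650 cells, a human line of nasal epithelial origin, exposed to short-chain perfluoroalkyl acids. The members were all rows of the gene table whose symbol begins with MT-, and they number 15 of 50868 rows. They are the 13 protein genes and the 2 ribosomal RNA (rRNA) genes, all on chromosome MT, and no mitochondrial tRNA is among the rows. All cells were wild type and, per the series' design text, grew at an air-liquid interface before RNA was sequenced in 3 groups of 4 libraries. The PFHxA group (perfluorohexanoic acid) and the PFBA group (perfluorobutanoic acid, which has the shorter carbon chain) received 1 µM of their acid for 7 days, and the third group is named only as control, with no vehicle or duration recorded for it. Nothing in the labels ties the 4 libraries of a group to separate cultures, so the p-values below measure the spread between libraries, which may be technical. The cells are 1 tumour-derived line, and in such bulk RNA fewer mitochondria per cell and less RNA per mitochondrion cannot be told apart.

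Mitochondrial DNA is a small circle whose strands are each transcribed as long RNAs that run through many genes. The tRNAs that lie between most genes are cut out, which frees the rRNAs and the messenger RNAs. All protein genes but MT-ND6 are read from the same strand, and MT-ND6 is read from the other. The proteins are subunits of respiratory complexes I, III and IV and of the ATP synthase (complex V), which also hold many subunits made from nuclear genes. MT-RNR1 and MT-RNR2 are the RNAs of the small and the large subunit of the mitochondrial ribosome. The machinery that copies, transcribes, cuts and degrades this RNA is encoded in the nucleus and imported.

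All 15 rows sit at the same position as in GENCODE 29 (GRCh38), and some share bases with a neighbour or have near-identical copies in the nuclear genome. MT-ATP8 (MT:8366-8572) and MT-ATP6 (MT:8527-9207) lie on 1 messenger RNA and share 46 bases, MT:8527-8572. MT-ND4L (MT:10470-10766) and MT-ND4 (MT:10760-12137) also lie on 1 messenger RNA and share 7 bases, and MT-ATP6 and MT-CO3 (MT:9207-9990) share 1 base. The shared stretch of MT-ATP8 and MT-ATP6 is shown because reads from it can belong to either gene, with the start codon of MT-ATP6 in capitals.
MT-ATP8/MT-ATP6 overlap: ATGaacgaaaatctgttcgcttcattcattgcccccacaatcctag
MTATP6P1 (1:633696-634376, plus strand) differs from MT-ATP6 at 10 of 681 positions, an identity of 98.53%. MTND2P28 (1:629640-630683, plus strand) differs from MT-ND2 (MT:4470-5511) at 17 of 1042 compared positions, an identity of 98.37%. A stretch of 90 bases of each pair is shown, with the differing positions in capitals. It was picked because no other stretch of this length holds more differing positions. Even there few bases tell a read of one from a read of the other. The stretch covers MT:8629-8718 against 1:633798-633887 for the first pair and MT:4902-4991 against 1:630072-630161 for the second, all GRCh38, plus strand, from GENCODE 29.
MT-ATP6: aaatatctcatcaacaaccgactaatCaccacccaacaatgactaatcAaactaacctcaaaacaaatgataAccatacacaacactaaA
MTATP6P1: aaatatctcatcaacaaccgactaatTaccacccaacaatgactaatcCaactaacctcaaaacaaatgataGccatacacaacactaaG
MT-ND2: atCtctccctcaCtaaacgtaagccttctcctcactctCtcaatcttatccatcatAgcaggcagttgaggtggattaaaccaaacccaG
MTND2P28: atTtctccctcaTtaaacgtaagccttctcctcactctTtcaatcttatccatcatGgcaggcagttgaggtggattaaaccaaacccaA
There are 4 differing positions in the first stretch and 5 in the second. How the authors' counting treated reads that fit both places is not given in the sources used here, so MT-ATP6, MT-ATP8, MT-ND2, MT-ND4L and MT-ND4 are reported as uncertain to that extent.

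Library totals ran from 16941599 counts, in the library control d, to 21879105. Levels are given as CPM, counts per 1000000 of a library's scaled total. The keratins KRT5, KRT7 and KRT8, which mark epithelial cells, averaged 2044, 1404 and 337 CPM in PFHxA libraries and 1918, 1316 and 322 CPM in control libraries, while CDH1 (E-cadherin) stood at 9.33 and 8.46 CPM in these groups and KRT14 at 0.493 and 0.552 CPM. Leukocyte markers were at or near 0, with PTPRC at 0.0403 and 0.0253 CPM. The endothelial gene CDH5 averaged 8.86 CPM in PFHxA and 8.61 CPM in control libraries. Of 12 epithelial markers 1, EPCAM, passed in PFHxA against control, at 38.2 and 43.2 CPM (edgeR adjusted p = 0.0384), where 14.9% of all tested genes passed. Against PFBA 2 passed, where 10.9% of all tested genes did: KRT5, at 2044 CPM in PFHxA and 1810 CPM in PFBA libraries, and KRT7, at 1404 and 1243 CPM (log2 0.18 for both, adjusted p = 0.0117 and 0.0163). Across all genes the PFHxA libraries differed from the rest in how levels varied with GC content, the share of G and C bases of a transcript. The slope of a library's log2 deviation per 10 percentage points of GC was 0.0674 to 0.0986 in PFHxA, -0.0683 to -0.00371 in PFBA and -0.0621 to -0.00853 in control libraries. The 15 members have a GC content of 39.61 to 47.7%.

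Per length, MT-CO1, a gene of cytochrome c oxidase, had the most counts of the members and MT-ND6 the fewest in all 12 libraries. MT-CO3 came second except in control d, where MT-RNR2 did (13440 against 12700 CPM per kilobase). The selection of RNA before sequencing is not stated, so the places of the rRNAs among the messenger RNAs may not be those in the cell. CPM divided by the length of the gene in kilobases (GENCODE 29) allows genes to be set against each other. Averaged over the 12 libraries, MT-CO1, MT-CO3 and MT-CO2, the 3 core subunits of complex IV, stood at 20180, 16120 and 13690 CPM per kilobase. MT-RNR2 averaged 13470 CPM per kilobase, and its place beside MT-CO2 differed between the groups. MT-CO2 and MT-RNR2 averaged 14970 and 13300 CPM per kilobase in PFHxA, 13140 and 13660 in PFBA, and 12960 and 13450 in control libraries. MT-CO2 was the higher of the pair in 4 of 4 PFHxA, 0 of 4 PFBA and 3 of 4 control libraries, control d being the exception. The middle of the order was held by MT-ATP8 (9915 CPM per kilobase), MT-ND4L (8435), MT-ND4 (7937), MT-CYB (7362), MT-ND1 (5148), MT-ND2 (4633), MT-ND5 (2708) and MT-ATP6 (2109), each above its successor in 12 of 12 libraries. This order leaves out the nuclear copies. With the level of its copy MTND2P28 added, MT-ND2 averaged 6083, 5098 and 4834 CPM per kilobase in PFHxA, PFBA and control libraries. MT-ND1 averaged 5876, 4957 and 4612. With MTATP6P1 added, MT-ATP6 averaged 4288, 3547 and 3433, and MT-ND5 averaged 3129, 2608 and 2386. MT-ND2 then stood above MT-ND1, and MT-ATP6 above MT-ND5, in the mean of each group. MT-ND3 averaged 1654 and MT-RNR1 1480 CPM per kilobase, with MT-ND3 the higher in 11 of 12 libraries. MT-ND6, the gene of the opposite strand, stood last at 524 CPM per kilobase.

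Genes on 1 messenger RNA were close in level in one case and far apart in the other. MT-ND4L and MT-ND4 averaged 9716 and 9095 CPM per kilobase in PFHxA, 8049 and 7607 in PFBA, and 7541 and 7108 in control libraries. MT-ATP8 averaged 11140, 9512 and 9095 CPM per kilobase in PFHxA, PFBA and control libraries, whereas MT-ATP6 averaged 2431, 1970 and 1928. With the level of its nuclear copy MTATP6P1 added, MT-ATP6 reached 4288 ± 201 CPM per kilobase in PFHxA, 3547 ± 186 in PFBA and 3433 ± 506 in control libraries (SD, n = 4 each), still below MT-ATP8. The part of the shared bases and of multiply placed reads in that gap was not tested. The 2 rRNAs also differed, with 14.1 to 15.8 counts of MT-RNR2 for each count of MT-RNR1 over the 12 libraries. How rRNA was removed or messenger RNA selected before sequencing is not stated in the labels.

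**Figure D1:**
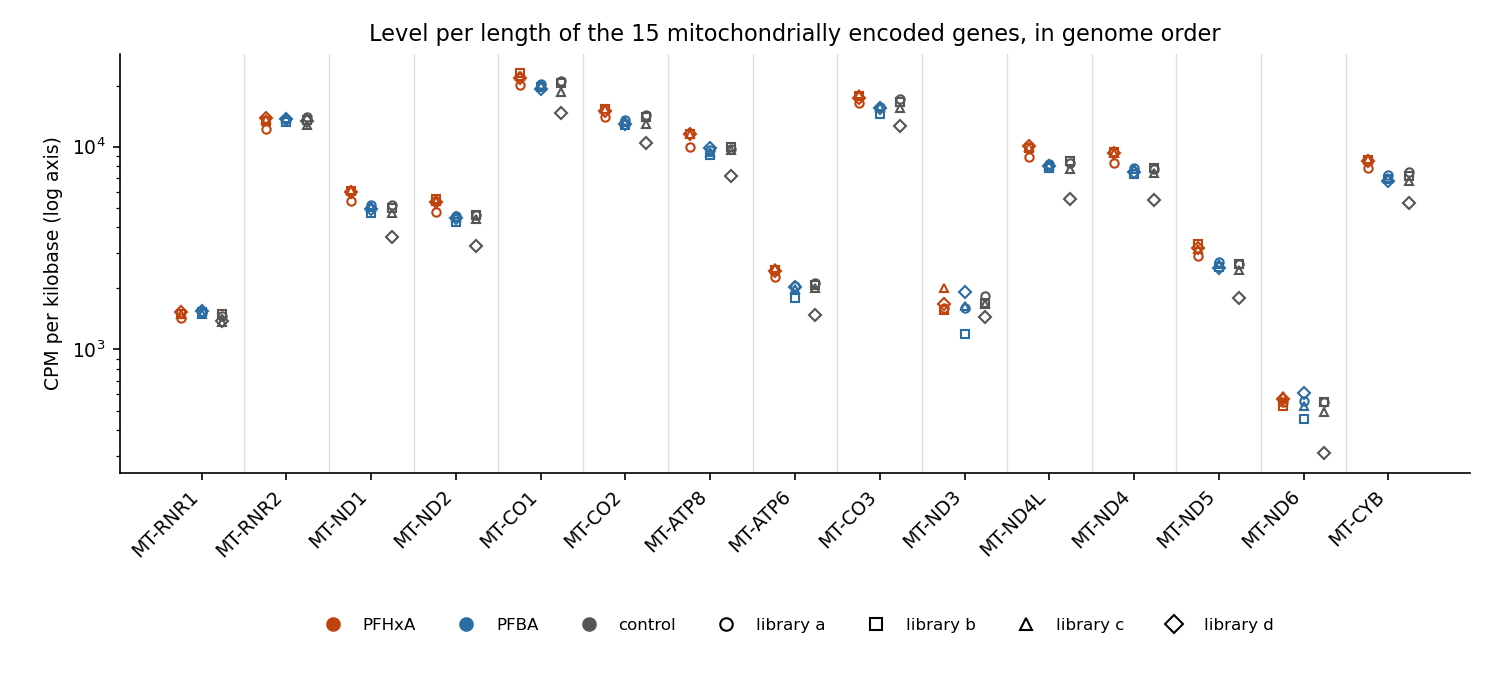
Level of each mitochondrial gene in every library as CPM per kilobase on a log axis, genes in genome order along the horizontal axis, with colour for the group and marker shape for the library letter. The genes span from MT-CO1 at 20180 to MT-ND6 at 524 CPM per kilobase on average, and the grey diamond, control d, lies below the other control libraries at every protein gene.

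Relative to all counts, PFHxA libraries held more of most mitochondrial messenger RNAs than control libraries, while neither rRNA passed the test. With all 12 libraries the difference was 1.23-fold to 1.31-fold among the genes that passed. Of the 13 protein genes, 8 were higher and 0 lower (edgeR quasi-likelihood test, Benjamini-Hochberg adjusted p under 0.05 over 16554 tested genes). They were 5 of 7 genes of complex I (MT-ND1, MT-ND2, MT-ND4, MT-ND4L and MT-ND5), the complex III gene MT-CYB, and both genes of complex V (MT-ATP6 and MT-ATP8). None of the 3 complex IV genes passed, though a difference between complexes was not tested. Of all tested genes 14.9% passed in this comparison, 6.08% as higher and 8.82% as lower. The median log2 fold change was 0.32 over the 13 protein genes and -0.00384 over all tested genes. Without control d the protein-gene median was 0.21. In all 8 genes every PFHxA library lay above every control library, which held for 9.49% of all tested genes. The number that passed depended on the fit, as given below. It was 0 with only the PFHxA and control libraries fitted, against 12.1% of all tested genes. With the GC and length trend of each library removed it was 1, against 2.62%.

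**Figure D2:**
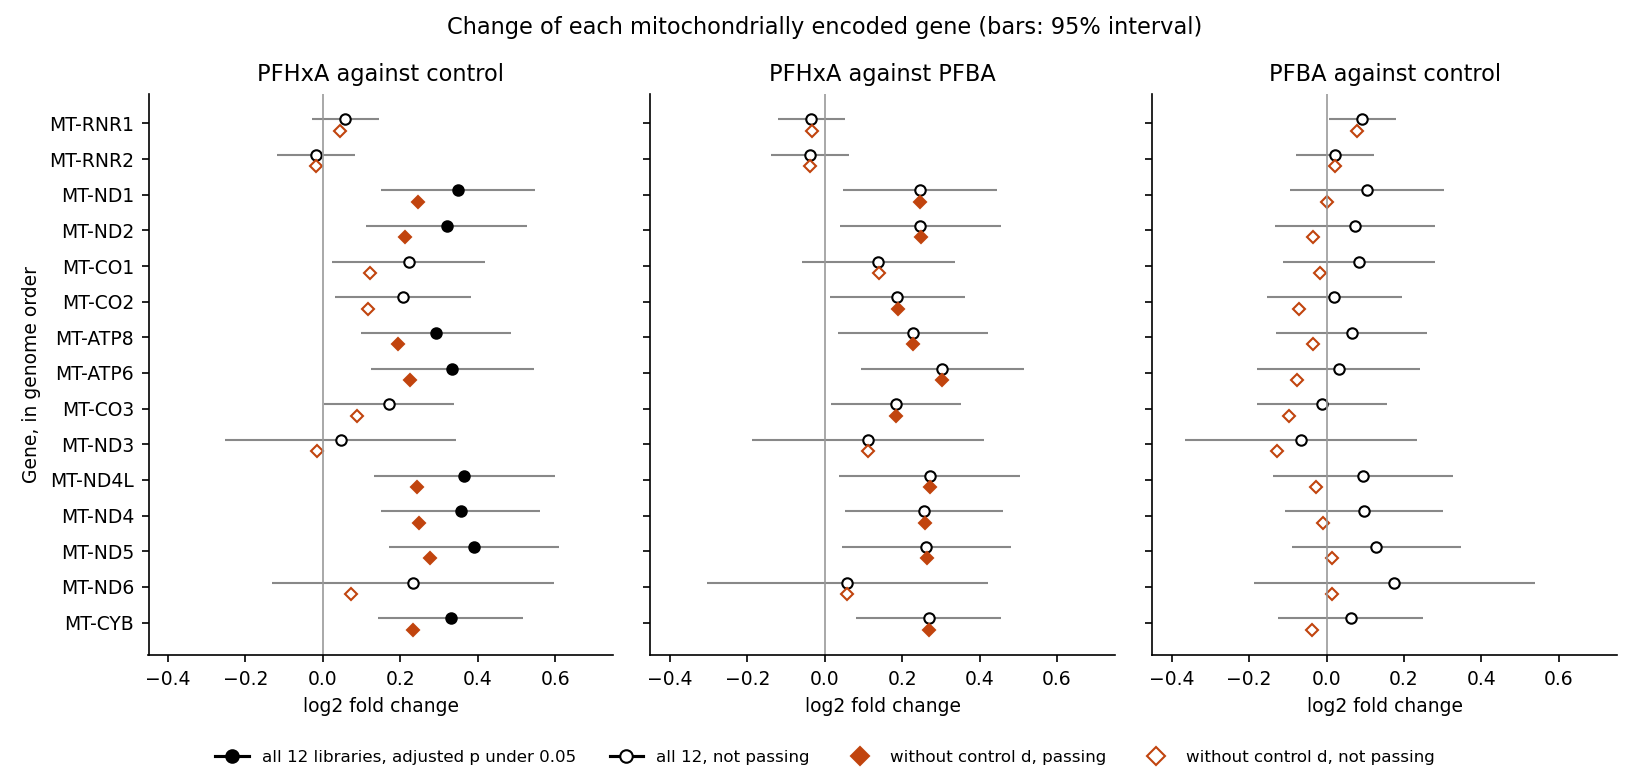
Log2 fold change of each mitochondrial gene in the 3 comparisons, with genes in genome order down the page. Circles with 95% interval bars come from all 12 libraries and diamonds from a fit without control d, filled where the adjusted p was under 0.05. In PFHxA against control the same 8 protein genes are filled in both fits, at smaller values without control d.

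MT-ND5, a membrane subunit of complex I, had the largest fitted change of the members. It stood at 5212, 6016, 5695 and 5755 CPM in PFHxA libraries a to d, at 4883, 4641, 4785 and 4593 CPM in PFBA libraries a to d, and at 4764, 4804, 4477 and 3252 CPM in control libraries a to d. All PFHxA libraries lay above all others, PFBA overlapped control a to c, and control d stood alone at the bottom. MT-ND5 was 1.31-fold higher in PFHxA than in control (log2 0.39 ± 0.10 SE, edgeR adjusted p = 0.0223).

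MT-ND1 and MT-ND2, also of complex I, repeated this arrangement. MT-ND1 (MT:3307-4262) had 5141, 5810, 5822 and 5696 CPM in PFHxA, 4928, 4521, 4796 and 4711 CPM in PFBA and 4938, 4747, 4525 and 3426 CPM in control libraries. MT-ND2 had 4976, 5749, 5642 and 5548 CPM in PFHxA, 4723, 4409, 4708 and 4623 CPM in PFBA and 4824, 4790, 4579 and 3364 CPM in control libraries. In both genes PFHxA a was the lowest library of its group and still exceeded every PFBA and control library. Against control the log2 fold changes were 0.35 ± 0.092 SE for MT-ND1 (edgeR adjusted p = 0.0238) and 0.32 ± 0.096 SE for MT-ND2 (adjusted p = 0.0413).

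MT-ND4 had 11440, 13050, 12820 and 12820 CPM in PFHxA, 10830, 10100, 10660 and 10330 CPM in PFBA and 10660, 10800, 10200 and 7512 CPM in control libraries. MT-ND4L, which precedes it on the same RNA, had 2652, 2936, 2961 and 2994 CPM in PFHxA, 2449, 2321, 2409 and 2384 CPM in PFBA and 2466, 2534, 2309 and 1648 CPM in control libraries. The PFHxA values did not overlap those of either other group in these genes, and PFHxA a and control d were each set apart below their own groups. The fold changes against control were 1.28 for MT-ND4 (log2 0.36 ± 0.094 SE, edgeR adjusted p = 0.0243) and 1.29 for MT-ND4L (log2 0.37 ± 0.11 SE, adjusted p = 0.0401).

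The remaining complex I genes, MT-ND3 and MT-ND6, did not pass in PFHxA against control. Their log2 fold changes had larger SEs than those of the other members, 0.14 for MT-ND3 and 0.16 for MT-ND6. MT-ND3 (MT:10059-10404) had 557, 539, 696 and 581 CPM in PFHxA, 557, 411, 567 and 662 CPM in PFBA and 636, 584, 579 and 499.6 CPM in control libraries. The highest library was PFHxA c and the lowest PFBA b, and all 3 groups overlapped, with a log2 fold change against control of 0.046 (95% interval -0.25 to 0.34, edgeR adjusted p = 0.871). MT-ND6 (MT:14149-14673, minus strand) had 291, 275, 310.1 and 298 CPM in PFHxA, 293, 239, 276 and 319.8 CPM in PFBA and 289.9, 288, 259 and 161 CPM in control libraries. Apart from control d the groups overlapped, and the log2 fold change was 0.23 (95% interval -0.13 to 0.60, adjusted p = 0.401), or 0.074 without control d. The strand setting of the counting is not given, so counts of MT-ND6 cannot be told from those of RNA complementary to it.

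MT-CYB (MT:14747-15887), cytochrome b, is the only subunit of complex III made from this genome. It had 8969, 9842, 9869 and 9715 CPM in PFHxA, 8258, 7889, 7982 and 7739 CPM in PFBA and 8581, 8219, 7732 and 5998 CPM in control libraries. PFHxA a was again the lowest of its group and again above all PFBA and control libraries. MT-CYB was 1.26-fold higher in PFHxA than in control (log2 0.33 ± 0.087 SE, edgeR adjusted p = 0.0222).

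MT-ATP6 and MT-ATP8 encode subunits of the membrane part of the ATP synthase. MT-ATP6 had 1556, 1685, 1727 and 1653 CPM in PFHxA, 1393, 1228, 1357 and 1388 CPM in PFBA and 1451, 1420, 1376 and 1005 CPM in control libraries. MT-ATP8 had 2064, 2390, 2387 and 2382 CPM in PFHxA, 1989, 1893, 1959 and 2035 CPM in PFBA and 2007, 2052, 1994 and 1478 CPM in control libraries. In MT-ATP8 the gap between PFHxA a and the nearest control library, b, was narrow, and control d again stood far below. Both were higher in PFHxA than in control, MT-ATP6 by log2 0.33 ± 0.097 SE (edgeR adjusted p = 0.0373) and MT-ATP8 by 0.29 ± 0.090 SE (adjusted p = 0.0456).

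The complex IV genes had smaller fitted changes, and PFHxA a lay within the control range in each. MT-CO1 (MT:5904-7445), the subunit that holds the site of oxygen reduction, had 31110, 35610, 34520 and 33800 CPM in PFHxA, 31410, 30460, 31100 and 29690 CPM in PFBA and 32540, 31740, 28830 and 22650 CPM in control libraries. MT-CO2 (MT:7586-8269), which takes electrons from cytochrome c, had 9601, 10550, 10510 and 10290 CPM in PFHxA, 9313, 8750, 9014 and 8875 CPM in PFBA and 9831, 9634, 8865 and 7131 CPM in control libraries. MT-CO3 had 12950, 13980, 14270 and 13580 CPM in PFHxA, 12260, 11430, 12370 and 12170 CPM in PFBA and 13490, 13040, 12150 and 9957 CPM in control libraries. In MT-CO1 and MT-CO2 PFHxA b to d exceeded every control library, and in MT-CO3 the margin of PFHxA d over control a was slight. The log2 fold changes against control were 0.22 (95% interval 0.025 to 0.42, edgeR adjusted p = 0.126), 0.21 (0.033 to 0.38, adjusted p = 0.107) and 0.17 (0.0044 to 0.34, adjusted p = 0.164). Without control d they were 0.12, 0.12 and 0.088.

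The count of 8 depended on which libraries entered the fit. It was 8, the same genes, without control d, with the median protein-gene log2 fold change at 0.21, but 0 without PFHxA b or PFHxA d, 1 without PFHxA c, 4 without control c or PFBA c, 5 without any other PFBA library and 0 when only the PFHxA and control libraries were fitted. The share of all tested genes that passed also moved. It was 10.6% without control d, 9.08% without PFHxA b, 10% without PFHxA d, 9.93% without PFHxA c, 13% without control c and 13.1% without PFBA c. Without PFBA a, b or d it was 13.3%, 14.1% and 14.3%, and with only these 8 libraries 12.1%. Without control d the log2 fold changes of the 8 genes lay between 0.19 (MT-ATP8) and 0.28 (MT-ND5), and that of MT-ND2 was 0.21. With the GC and length trend of each library removed the fitted changes were larger, with a protein-gene median of 0.42, yet only MT-ND4 passed (edgeR adjusted p = 0.0483, against 2.62% of all tested genes), the rest of the 8 having adjusted p of 0.0522 to 0.0896. Scaling to the mitochondrial total divides each library by the members' own counts, so a rise that they share is removed by design. What remains are changes of the members relative to each other. Under this scaling none passed, against 19.7% of all tested genes, and the protein-gene median was 0.111 beside -0.227 for all tested genes. MT-CO2, MT-CO3 and MT-ND3 then stood at -0.0026, -0.0395 and -0.17.

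Neither rRNA passed in PFHxA against control. MT-RNR1 (MT:648-1601) had 1357, 1431, 1423 and 1465 CPM in PFHxA, 1437, 1463, 1432 and 1481 CPM in PFBA and 1401, 1429, 1298 and 1324 CPM in control libraries. MT-RNR2 (MT:1671-3229) had 19140, 20960, 21320 and 21510 CPM in PFHxA, 21360, 20760, 21620 and 21450 CPM in PFBA and 21790, 21110, 20050 and 20950 CPM in control libraries. Control d, low for every protein gene, lay within its group's range for both rRNAs. Between PFHxA and control the log2 fold change was 0.058 for MT-RNR1 (95% interval -0.029 to 0.145, edgeR adjusted p = 0.383) and -0.017 for MT-RNR2 (-0.12 to 0.084, adjusted p = 0.863).

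**Figure D3:**
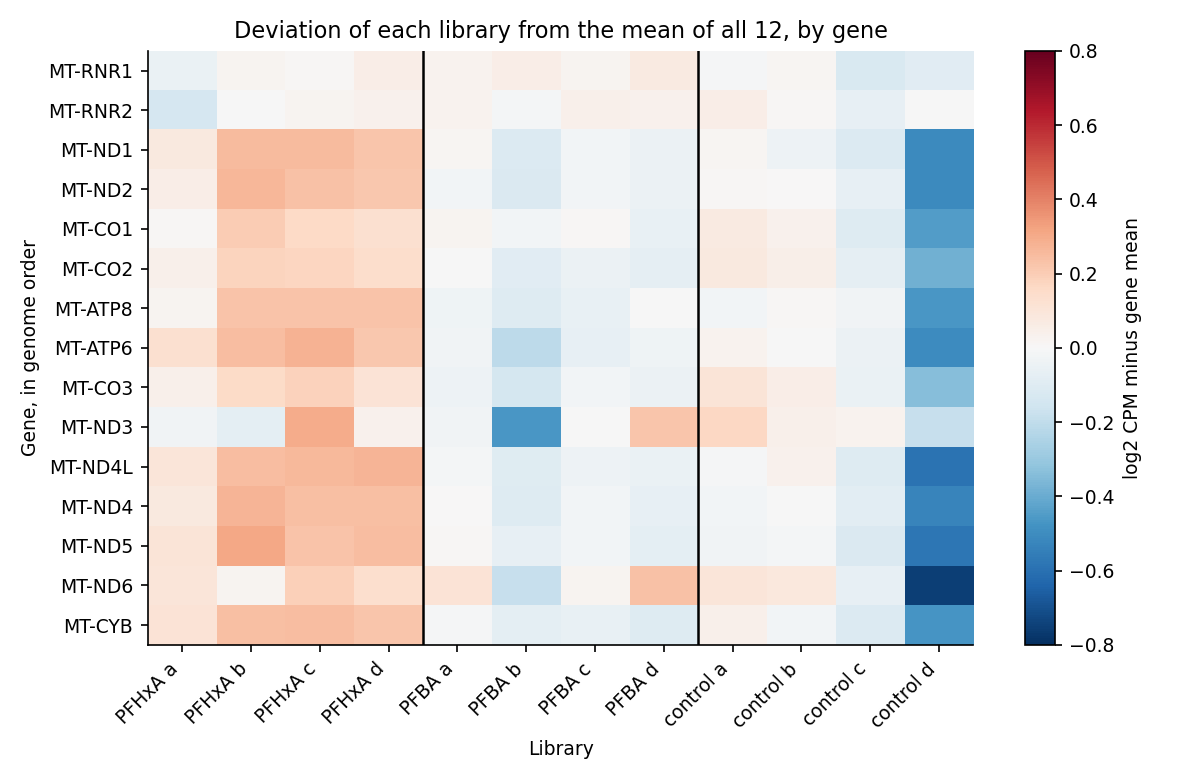
Deviation of log2 CPM from the mean of all 12 libraries, with genes in genome order down the page and libraries across it, red above and blue below that mean. PFHxA b to d are red across nearly all protein genes, control d is blue at every protein gene, from -0.184 for MT-ND3 to -0.751 for MT-ND6, and the 2 rRNA rows at the top are pale throughout.

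Summed, the 13 protein genes took 9.66, 10.7, 10.6 and 10.4% of all counts in PFHxA, 9.37, 8.90, 9.24 and 8.99% in PFBA and 9.63, 9.40, 8.82 and 6.89% in control libraries. Wilson 95% intervals of these shares reach at most 0.0142 percentage points to either side and cover counting error only. The PFHxA library a lay just above the highest control library, and control d below all others. The 2 rRNAs took 2.05, 2.21, 2.26 and 2.28% in PFHxA, 2.29, 2.24, 2.32 and 2.30% in PFBA and 2.31, 2.24, 2.14 and 2.26% in control libraries, with the groups overlapping.

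Counts of rRNA per 100 counts of protein genes set the PFHxA libraries apart on the low side. This ratio was 21.2, 20.65, 21.2 and 21.9 in PFHxA, 24.4, 25.2, 25.1 and 25.6 in PFBA and 24.03, 23.8, 24.3 and 32.7 in control libraries. No PFHxA library reached any PFBA or control library, and control d was the highest of all. When libraries were scaled to their mitochondrial total, the log2 fold change of MT-RNR2 in PFHxA against control was -0.25 (edgeR adjusted p = 0.0760) with 12 libraries and -0.15 (adjusted p = 0.0323) without control d. Against PFBA it was -0.19 in both fits, with an adjusted p of 0.235 with 12 libraries and 0.00406 without control d. MT-RNR1 gave -0.17 (adjusted p = 0.180) and -0.087 (adjusted p = 0.288) against control, and -0.19 against PFBA with an adjusted p of 0.201 and 0.00973. That scaling moves the median of all tested genes to -0.227 in PFHxA against control and -0.148 in PFHxA against PFBA with 12 libraries. Without control d these medians were -0.131 and -0.148. Under it 19.7% of all tested genes passed against control and 7.11% against PFBA with 12 libraries, and 14% and 19.2% without control d. Leaving out control d from it was chosen after its values were seen.

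**Figure D4:**
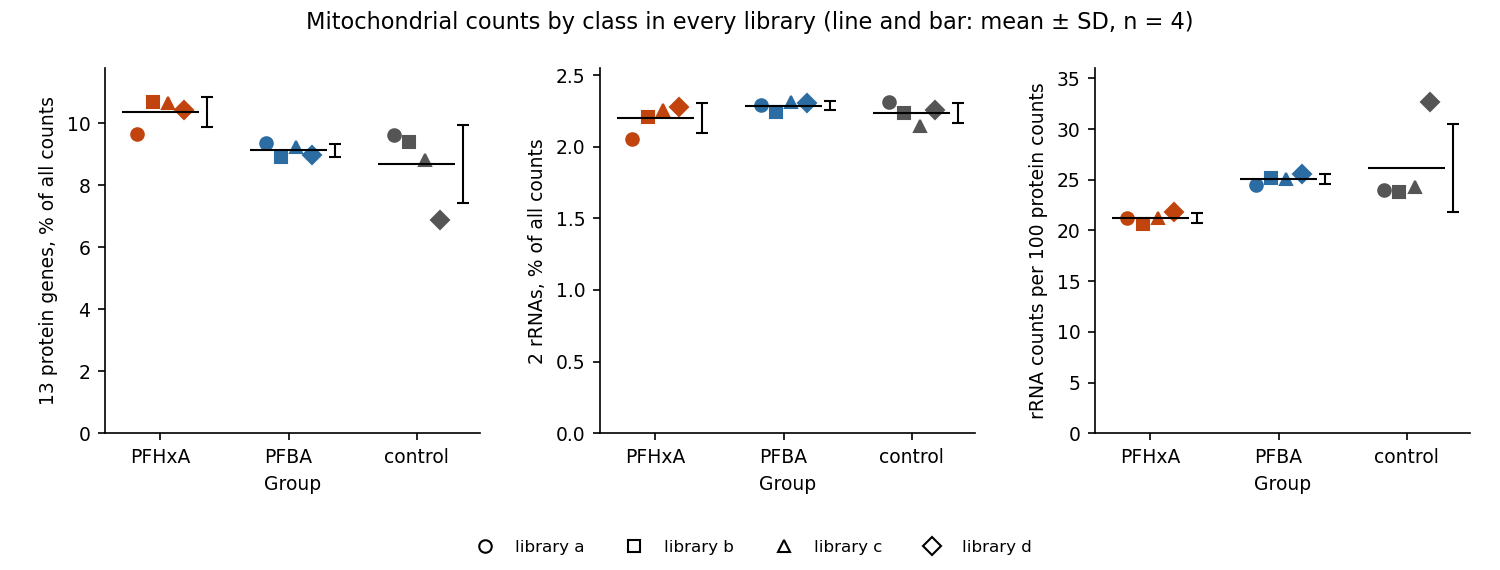
Percent of all counts on the 13 protein genes (left) and the 2 rRNAs (middle), and rRNA counts per 100 protein-gene counts (right), in every library by group, with lines at the group mean and bars for the SD (n = 4). In the right panel all PFHxA libraries lie at 20.65 to 21.9, below the 23.8 to 32.7 of all other libraries.

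The nuclear copies with most counts, MTATP6P1 and MTND2P28, were higher in PFHxA than in control, as were the genes they resemble. Of 380 rows of nuclear copies, 284 had no count in any library and 11 were tested. MTATP6P1 and MTND2P28 led by far, with 262822 and 172601 counts over all libraries, ahead of MTCO1P12 (4785), MTND4P12 (3983) and MTRNR2L12 (1638). MTATP6P1 had 1165, 1302, 1303 and 1288 CPM in PFHxA, 1118, 1002, 1088 and 1087 CPM in PFBA and 1111, 1111, 1055 and 824 CPM in control libraries. As for MT-ATP6, PFHxA lay on top and control d at the bottom, and MTATP6P1 was higher in PFHxA than in control (log2 0.30 ± 0.082 SE, edgeR adjusted p = 0.0271).

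For each 100 counts of MT-ATP6 there were 74.9 to 77.9 counts of MTATP6P1 in PFHxA, 78.3 to 81.6 in PFBA and 76.5 to 82.0 in control libraries. MTND2P28 had 14.6 to 16.2 counts per 100 counts of MT-ND2 in PFHxA, 14 to 15.65 in PFBA and 14.4 to 15.3 in control libraries, and was also higher in PFHxA than in control (log2 0.41 ± 0.11 SE, edgeR adjusted p = 0.0262). The counts of gene and copy thus moved together from library to library, and whether the reads came from the mitochondrial or the nuclear place was not tested. When the counts of each gene and its copy were added, the same 8 protein genes passed in PFHxA against control. MTCO1P12, at 23.3 CPM in PFHxA and 18.9 CPM in control libraries, did not pass (edgeR adjusted p = 0.166).

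**Figure D5:**
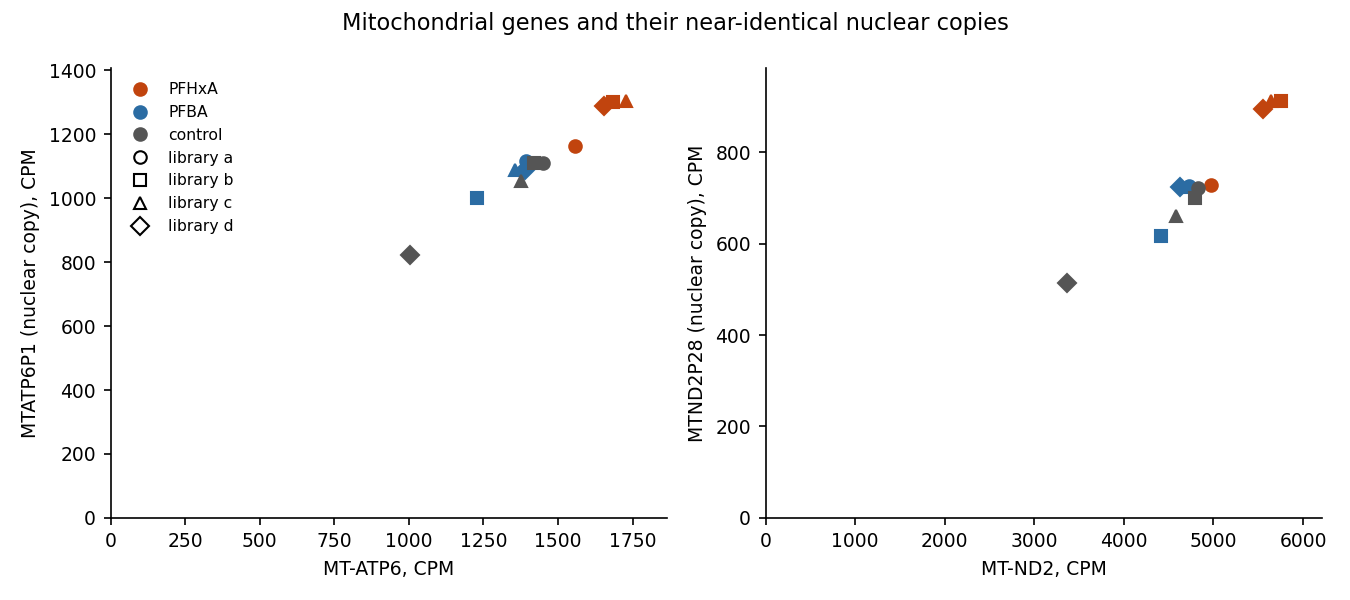
CPM of MTATP6P1 against MT-ATP6 (left) and of MTND2P28 against MT-ND2 (right), both axes from 0, with colour for the group and marker shape for the library letter. Points run close to a line through the origin, with control d at 1005 CPM of MT-ATP6 and 824 CPM of MTATP6P1 the lowest and the PFHxA libraries the highest.

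PFHxA and PFBA were given at the same concentration for the same time, and they differ in the length of the fluorinated chain, which is longer in PFHxA. In 10 of the 13 protein genes every PFHxA library lay above every PFBA library, against 9.25% of all tested genes. With 12 libraries 0 of the 15 members passed the edgeR test, while 10.9% of all tested genes passed. An unadjusted p under 0.05 was found for 10 of the 15 and for 26.6% of all tested genes. DESeq2 called 2, MT-ATP6 and MT-CYB, against 21.6% of the genes it gave an adjusted p, and limma-voom called 0, against 11.4%. The median log2 fold change was 0.245 over the 13 protein genes and 0.00548 over all tested genes. Without control d, 10 protein genes passed as higher, against 13% of all tested genes in either direction. With only the PFHxA and PFBA libraries fitted 10 passed, against 11.6%. Without control a 1 passed (1781 of 16747 tested genes). Leaving out any other single library gave 0, where 1035 to 1916 of 16729 to 16787 tested genes passed. The count was also 0 with the GC and length trend removed (0.876% of all tested genes), without the count filter (1444 of 31015) and with a block by library letter (1838 of 16554). All 12 libraries share 1 estimate of the spread, and for MT-ND5 the log2 fold change was 0.26 ± 0.044 SE without control d and 0.26 ± 0.10 SE with it.

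MT-ATP6 had the largest fitted difference between the acids. Its fold change in PFHxA against PFBA was 1.23 (log2 0.30, 95% interval 0.093 to 0.51, edgeR adjusted p = 0.0640 with 12 libraries and 0.00236 without control d). That of MT-CYB was 0.27 on the log2 scale (interval 0.082 to 0.46, adjusted p = 0.0631 and 0.00270), and that of MT-ND5 0.26 (interval 0.044 to 0.48, adjusted p = 0.115 and 0.00341). MT-CO2 and MT-CO3 had log2 fold changes of 0.19 and 0.18 and also passed without control d (adjusted p = 0.0124 and 0.0153). MT-CO1 did not pass in either fit (log2 0.14, interval -0.058 to 0.34, adjusted p = 0.371 with 12 libraries), nor did MT-ND3 or MT-ND6. For the rRNAs the log2 difference between the acids was -0.034 in MT-RNR1 (interval -0.12 to 0.052, adjusted p = 0.651) and -0.039 in MT-RNR2 (interval -0.14 to 0.062, adjusted p = 0.661).

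No mitochondrial transcript passed the test between PFBA-exposed and control cells. In edgeR 0 of the 15 members passed and 1, MT-RNR1, had an unadjusted p under 0.05. DESeq2 and limma-voom also called 0. Of all tested genes 0.00604% passed in edgeR, 0.308% in DESeq2 and 0% in limma-voom, and 9.86% had an unadjusted p under 0.05 in edgeR. The median log2 fold change over the protein genes was 0.0726 with all libraries and -0.0349 without control d, against -0.00264 over all tested genes. The intervals allow changes of some size in either direction, for MT-CO1 from -0.11 to 0.28 on the log2 scale and for MT-ND5 from -0.0905 to 0.35. MT-RNR1 was the only member whose PFBA libraries all lay above all control libraries, where 3.16% of all tested genes did so, at 1453 ± 22.9 CPM in PFBA and 1363 ± 62.0 CPM in control libraries (SD, n = 4 each; log2 0.093, edgeR adjusted p = 0.480). The comparisons of PFHxA and of PFBA with control share the same 4 control libraries.

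The nuclear genes that serve mitochondrial transcription and RNA metabolism included more that were lower than higher in PFHxA. Over 3 lists (transcription and replication of mitochondrial DNA, RNA processing and decay, and regulators of mitochondrial biogenesis), 75 of 76 genes were tested, 5 were higher and 14 lower in PFHxA than in control, and their median log2 fold change was -0.069. As given above, 6.08% of all tested genes were higher and 8.82% lower. The lists were chosen with earlier results of these data known.

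Among 19 genes of transcription and replication, 2 were higher and 5 lower, where 6.08% of all tested genes were higher and 8.82% lower. POLRMT, the mitochondrial RNA polymerase, averaged 116 ± 2.31 CPM in PFHxA and 101.5 ± 4.76 CPM in control libraries (SD, n = 4 each; log2 0.19, edgeR adjusted p = 0.0140). TWNK, the replicative helicase, was also higher, at 39.0 and 32.7 CPM (log2 0.26, adjusted p = 0.0267). TFAM, which packages mitochondrial DNA and starts its transcription, was lower, at 77.9 ± 3.30 CPM in PFHxA and 89.4 ± 5.63 CPM in control libraries (log2 -0.20, adjusted p = 0.0197). The other genes that fell were MTERF3 (log2 -0.34), DNA2, a helicase and nuclease (-0.25), SSBP1, which coats single-stranded mitochondrial DNA (-0.22), and MGME1, an exonuclease (-0.15), the last 2 not passing without control d (adjusted p = 0.0973 and 0.0988). With each library's GC and length trend removed, none of these 7 passed, with log2 fold changes of 0.052 for POLRMT, 0.18 for TWNK, -0.046 for TFAM, -0.13 for MTERF3, -0.052 for DNA2, -0.0085 for SSBP1 and -0.089 for MGME1.

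Of 40 genes of RNA processing, modification and decay, 1 was higher and 7 lower, beside 6.08% and 8.82% of all tested genes. TRMT10C, a subunit of the enzyme that cuts tRNA 5′ ends out of the long transcripts, averaged 36.9 ± 3.72 CPM in PFHxA and 50.7 ± 4.59 CPM in control libraries (SD, n = 4 each; log2 -0.46, edgeR adjusted p = 0.00264). LRPPRC, which stabilises mitochondrial messenger RNAs, averaged 590.0 ± 20.0 CPM in PFHxA and 679 ± 24.8 CPM in control libraries (log2 -0.20, adjusted p = 0.00475). The RNA-binding proteins FASTKD2 and FASTKD1 fell by 0.39 and 0.28 on the log2 scale. TRMT5, a tRNA methyltransferase, the nuclease PNPT1 and REXO2, which degrades short RNA fragments, were lower as well (log2 -0.23, -0.23 and -0.22). PDE12, which removes poly(A) tails from mitochondrial RNA, was the gene that rose (log2 0.13, adjusted p = 0.0435). PDE12 and REXO2 did not pass without control d (adjusted p = 0.102 and 0.105). After removal of the trend LRPPRC stood at -0.16 (adjusted p = 0.0303) and PDE12 at 0.19 (adjusted p = 0.0235), while the rest did not pass, TRMT10C at -0.22, FASTKD2 at -0.20, REXO2 at -0.14, TRMT5 at -0.12, PNPT1 at -0.10 and FASTKD1 at -0.051.

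Of 16 tested regulators of biogenesis, 2 were higher and 2 lower, beside 6.08% and 8.82% of all tested genes. PPRC1, a coactivator related to PGC-1, and PPARD, a nuclear receptor of fatty acids, were higher (log2 0.20 and 0.23). GABPA, the DNA-binding subunit of a factor that drives many respiratory-chain genes, and PRKAA1, a catalytic subunit of AMP-activated kinase, were lower (log2 -0.27 and -0.17, edgeR adjusted p = 0.00331 and 0.0489). After removal of the trend none of these 4 passed, PPRC1 standing at 0.068, PPARD at 0.12 and GABPA at -0.080, and PRKAA1 turned to 0.0399. Scaling to the mitochondrial total, which moves the median of all tested genes to -0.227, put POLRMT, PPRC1 and PDE12 at -0.0359, -0.0196 and -0.089, each above that median.

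A similar number of the nuclear genes passed between the acids. In PFHxA against PFBA 5 were higher and 13 lower, where 3.84% of all tested genes were higher and 7.07% lower. LRPPRC averaged 590.0 ± 20.0 CPM in PFHxA and 702 ± 15.6 CPM in PFBA libraries (SD, n = 4 each; log2 -0.25, edgeR adjusted p = 0.00229), and NSUN3, a methyltransferase of a mitochondrial tRNA, 7.44 ± 0.601 and 10.3 ± 0.172 CPM (log2 -0.47, adjusted p = 0.0114). TRNT1, which adds the CCA end of tRNAs, and the deacetylase SIRT1 were lower too (log2 -0.29 and -0.17), while FASTK and TBRG4, RNA-binding proteins of the same family, were higher (log2 0.22 and 0.20). In PFBA against control 0 of the 75 passed in edgeR, 8 having an unadjusted p under 0.05, and 0 in DESeq2 or limma-voom. With each library's GC and length trend removed, 2 of the 19 genes that passed in PFHxA against control still passed, LRPPRC and PDE12, where 2.62% of all tested genes passed, and 1 of the 75 passed in PFHxA against PFBA, where 0.876% of all tested genes did. NSUN3, TRNT1, SIRT1, FASTK and TBRG4 then stood at -0.27, -0.064, -0.025, 0.11 and 0.12 against PFBA, and none of them passed. The 19 were 12 without PFHxA b, and the 18 were 9 to 10 without PFHxA b, PFBA c or PFBA d, where 6.17%, 6.83% and 6.62% of all tested genes passed.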

How the data were processed

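The deposited table holds raw counts per gene and library, which the authors made from reads aligned with HISAT2 2.0.4 to GRCh38 (hg38), per the submitters' processing notes. No source used here names the counting program, annotation release, strand setting or treatment of multiply aligned reads. Libraries were made from total RNA, per the labels. The 12 FPKM columns of the table were not used, and levels per length are CPM over GENCODE 29 gene lengths. Columns were read as PFHxA, PFBA and control from their prefixes, and library letters are those of the columns. Positions and sequences come from GENCODE 29.

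Genes kept by filterByExpr (minimum count 10, total 15) entered 1 quasi-likelihood fit of all 12 libraries in edgeR 4.0.16 (R 4.3.3), with TMM scaling, robust dispersion and no term but the group. F tests were two-sided, with Benjamini-Hochberg adjustment over 16554 genes and a threshold of 0.05. CPM uses TMM-scaled totals. The SE is the log2 fold change divided by the square root of F. The fit was tested on simulated counts. Alternatives used limma 3.58.1, DESeq2 1.42.0, other scalings and filters, removal of a GC and length trend (spline, 5 degrees of freedom, 16452 genes with a value), a block by letter and each library left out. Adding nuclear copies to their genes, and leaving out control d from the scaling to the mitochondrial total, were added after seeing the data. Figures used Python 3.11.15 with matplotlib 3.10.9.

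All MT- rows are named, with nuclear list genes that passed in any comparison and the 5 nuclear copies with most counts. The members and lists were chosen with earlier results of these data known. Shares carry Wilson 95% intervals.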

Additional observations from a re-analysis of the deposited data

Results flagged for a closer look

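In 66 groups of 4 libraries, 9 held a library set apart from the other 3 by a gap that took most of the group's range (Dixon's test at 95%). Chance gives about 1 in 20 for a single group. The groups are measures of the same 12 libraries and depend on each other, so the count of 9 cannot be set against that rate. All 9 came from PFHxA a or control d. PFHxA a was low for MT-ND4L (2652 CPM, the others 2936 to 2994), MT-ND4 (11440 CPM, the others 12820 to 13050), MT-ATP8 (2064 CPM, the others 2382 to 2390) and the mitochondrial share of all counts (11.7%, the others 12.7 to 12.9%). Control d was low for MT-ND2 (3364 CPM, the others 4579 to 4824), MT-ATP6 (1005 CPM, the others 1376 to 1451) and MT-ATP8 (1478 CPM, the others 1994 to 2052). It was also low for counts of MT-ND6 per 1000 counts of the other protein genes (2.37, the others 2.96 to 3.05) and high for counts of MT-RNR2 per 100 protein-gene counts (30.8, the others 22.3 to 22.8).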

How the results depend on the processing

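In PFHxA against control 8 members were called with all libraries, where 14.9% of all tested genes passed. The count was 0 with scaling to the mitochondrial total (19.7% of all tested genes) and with only the 8 libraries compared (12.1%). Scaling to the mitochondrial total divides by the members' own counts, which removes a change they share. Without the filter the count was also 0 (1950 of 31015 tested genes), and 1 with the GC and length trend removed (2.62%). With 1 library left out it was 0 to 8, where 1523 to 2395 of 16729 to 16787 tested genes passed. In PFHxA against PFBA 0 members were called with all libraries, where 10.9% of all tested genes passed. The count was 10 with only the 8 libraries compared (11.6%) and 2 with DESeq2 (21.6% of genes with an adjusted p). With 1 library left out it was 10 without control d, 1 without control a and 0 otherwise, where 1035 to 2187 tested genes passed. The column letters carry no number of the labels, and whether they pair libraries is not known. Correlations of same-letter libraries, in deviations from their group means, lay between -0.0896 and 0.0625. Such values show no clear shared shift but cannot show whether these libraries were grown or processed together. A replicate block by letter left 4 of the 8 members, where 2441 of 16554 tested genes passed. Nuclear list genes called in PFHxA against control numbered 19 with all libraries (14.9% of all tested genes) and 2 with the trend removed (2.62%). With 1 library left out they numbered 12 to 18, where 1523 to 2395 of all tested genes passed. In PFHxA against PFBA the nuclear list genes called numbered 18 with all libraries (10.9% of all tested genes). They were 11 with scaling to the mitochondrial total (7.11%) and 1 with the trend removed (0.876%). With 1 library left out they numbered 9 to 20, where 1035 to 2187 of all tested genes passed.

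Log2 fold changes that turned direction were all of values that had not passed, except for POLRMT, PPRC1 and PDE12, at -0.0359, -0.0196 and -0.089 in PFHxA against control with scaling to the mitochondrial total, where the median of all tested genes stood at -0.227, and PRKAA1, at 0.0399 with the trend removed. That scaling also turned MT-CO2 (-0.0026), MT-CO3 (-0.0395), MT-ND3 (-0.17) and MT-RNR1 (-0.167, and -0.0868 with control d left out) in PFHxA against control, MT-CO1 (-0.0176), MT-ND3 (-0.0419) and MT-ND6 (-0.0941) in PFHxA against PFBA, and MT-ATP6 (-0.0215), MT-CO2 (-0.035) and MT-RNR2 (-0.051) in PFBA against control. Removing the trend turned MT-RNR2 in PFHxA against control (0.144), MT-RNR1 (0.0285) and MT-RNR2 (0.0866) in PFHxA against PFBA, and MT-CO3 in PFBA against control (0.0408). With 1 library left out, PFBA against control ranged from -0.0775 to 0.0819 for MT-ATP6, from -0.0349 to 0.109 for MT-ATP8, from -0.0172 to 0.144 for MT-CO1, from -0.0711 to 0.0725 for MT-CO2, from -0.0966 to 0.0408 for MT-CO3, from -0.0373 to 0.122 for MT-CYB, from -0.0353 to 0.12 for MT-ND2, from -0.168 to 0.0507 for MT-ND3, from -0.00984 to 0.148 for MT-ND4 and from -0.0273 to 0.159 for MT-ND4L, the low end being without control d in all of these but MT-ND3. PFHxA against control ranged from -0.0325 to 0.0991 for MT-ND3 and from -0.0373 to 0.0204 for MT-RNR2, and PFHxA against PFBA from -0.00406 to 0.214 for MT-ND3 and from -0.0125 to 0.125 for MT-ND6. Apart from the built-in effect of scaling to the mitochondrial total, the cause of these shifts was not tested. The least counted member, MT-ND6, had at least 2764 counts in every library.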
